A study of Drosophila melanogaster with 42 samples.

Results

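The binding of MSL2 and of MSL3 was compared in M1[WT]+MSL2 females of Drosophila melanogaster, from the list of ChIP-seq peaks deposited for each protein. A record is 1 line of such a list, that is a peak with its start, its end and its summit. The 2 lists held 4006 records, 2460 for MSL2 and 1546 for MSL3, of 39130 records in the 6 lists of the series. Every record was kept. A record was counted as shared where a record of the other protein lay within 500 bp of it, edge to edge, and as private to its protein otherwise. The rule used positions alone, so widths, ranks, genes and the other lists of the series are measures that it did not use, while the gaps to the other protein are what it set.

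These females lack functional endogenous msl-1 and carry 1 transgene for wild-type MSL1 and 1 for FLAG-tagged wild-type MSL2, at the same landing site and each under the Ubi-p63E promoter. Wild-type females make no MSL2, so MSL2 in the females studied here comes from the transgene. For comparison, M1[WT] males have the same msl-1 background, 2 copies of the MSL1 transgene and their own MSL2. The labels give an age of 3 days, and chromatin was made from whole adult flies, so binding in single tissues was not resolved. The genotype label of the MSL3 male libraries names the MSL2 transgene and their title does not, so these libraries are called males by title. Each list was made from 2 biological replicates and is 1 set of values. No replicate error could be computed and no test was made. Intervals are 95% Wilson intervals for shares and exact binomial intervals for medians, across records, and cover counting error only. The number of reads behind a record is unknown.

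The MSL complex carries dosage compensation in males, where it binds the single X chromosome and raises its transcription. MSL2, a RING-domain protein that is made in males and not in females, binds DNA and pairs with the scaffold MSL1. MSL3 has a chromodomain and helps the complex to bind along active genes, over nucleosomes methylated by transcription-coupled enzymes. High-affinity sites (HAS) are X-linked sites with GA-rich motifs, where MSL1 and MSL2 bind first. The roX1 and roX2 genes, which encode the non-coding RNAs of the complex, both hold such sites.

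Sequences were taken around summits, to show what lies under the records of roX1, roX2 and Pp2C1 and under the 5 strongest X-linked records of each class. Each window has 101 bases, 50 on each side of the summit, on the plus strand of dm6, as RefSeq gives it. Capitals mark a GA repeat, that is at least 8 alternating bases of G and A (GAGAGAGA or AGAGAGAG) on either strand. Windows that touch untranslated regions, those of Stt3A, hep, CG32767 and Ugalt, are not shown. The MSL3 windows were added for contrast, after their values had been seen.

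roX1, MSL2 summit of a shared pair, chrX:3861276-3861376: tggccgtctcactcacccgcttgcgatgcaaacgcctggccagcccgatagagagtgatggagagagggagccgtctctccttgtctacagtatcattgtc
roX2, MSL2 summit of a shared pair, chrX:11580201-11580301: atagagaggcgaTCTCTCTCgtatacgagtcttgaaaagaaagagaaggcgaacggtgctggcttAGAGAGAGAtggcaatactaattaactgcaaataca
Pp2C1, MSL2 summit of a shared pair, chrX:4684497-4684597: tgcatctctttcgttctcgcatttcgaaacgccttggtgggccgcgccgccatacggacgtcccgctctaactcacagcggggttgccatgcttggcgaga
Rala and Tlk, MSL2 summit of a shared pair, chrX:3719735-3719835: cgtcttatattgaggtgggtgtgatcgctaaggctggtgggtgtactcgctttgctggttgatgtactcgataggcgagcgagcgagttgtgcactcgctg
snoRNA:M and sta, MSL2 summit of a shared pair, chrX:1481533-1481633: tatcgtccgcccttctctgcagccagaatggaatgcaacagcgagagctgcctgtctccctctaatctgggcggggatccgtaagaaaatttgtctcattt
CG4645, MSL2 summit of a shared pair, chrX:12910945-12911045: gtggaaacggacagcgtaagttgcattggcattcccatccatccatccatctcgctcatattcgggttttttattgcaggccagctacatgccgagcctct
Dop2R, private MSL2 summit, chrX:20024646-20024746: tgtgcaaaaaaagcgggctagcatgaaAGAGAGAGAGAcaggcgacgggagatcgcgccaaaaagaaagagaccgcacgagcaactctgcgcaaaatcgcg
CG4313, private MSL2 summit, chrX:2050278-2050378: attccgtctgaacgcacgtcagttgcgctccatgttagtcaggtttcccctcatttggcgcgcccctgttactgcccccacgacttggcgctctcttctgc
ben, private MSL2 summit, chrX:13996873-13996973: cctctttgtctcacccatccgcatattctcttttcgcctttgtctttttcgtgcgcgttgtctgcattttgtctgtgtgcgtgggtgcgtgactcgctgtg
RpL37-1, private MSL3 summit, chrX:15137390-15137490: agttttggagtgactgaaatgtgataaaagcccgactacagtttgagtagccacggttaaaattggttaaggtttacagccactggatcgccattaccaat
upd2, private MSL3 summit, chrX:18239445-18239545: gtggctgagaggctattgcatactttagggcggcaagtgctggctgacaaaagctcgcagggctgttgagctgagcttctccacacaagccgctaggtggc
CG3918, private MSL3 summit, chrX:6524358-6524458: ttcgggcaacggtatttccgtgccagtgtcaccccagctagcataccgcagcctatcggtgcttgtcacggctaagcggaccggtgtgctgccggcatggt
DAAM, private MSL3 summit, chrX:1322381-1322481: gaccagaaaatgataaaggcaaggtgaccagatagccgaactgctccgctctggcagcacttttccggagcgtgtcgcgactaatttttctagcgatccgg
Axs, private MSL3 summit, chrX:16683943-16684043: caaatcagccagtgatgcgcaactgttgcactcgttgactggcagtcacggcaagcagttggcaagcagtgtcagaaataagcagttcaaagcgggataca

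The windows of roX2 and of Dop2R held GA repeats, 2 in roX2 and 1 in Dop2R. The other windows printed held none, those of roX1 and Pp2C1 included. Of the windows not shown, that of Stt3A held 1. A match is a description of letters and does not show that a protein binds them.

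The proteins met more often on the X chromosome than elsewhere. Of all records, 41.3% of MSL2 and 59.7% of MSL3 records were shared. On the X chromosome 831 of 1577 MSL2 records (52.7%, 50.2% to 55.2%) and 746 of 1100 MSL3 records (67.8%, 65.0% to 70.5%) were shared. On the autosome arms 182 of 878 MSL2 records (20.7%, 18.2% to 23.5%) and 172 of 409 MSL3 records (42.1%, 37.4% to 46.9%) were shared. These shares stand beside different densities: MSL2 had 67.0 records per Mb of the X chromosome and 7.96 per Mb of the autosomes, and MSL3 had 46.7 and 3.71. The sequence within 500 bp of a MSL2 record was 10.6% of X and 1.09% of the autosomal sequence, and that within 500 bp of a MSL3 record was 9.36% and 0.52%.

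The higher share in MSL3 on the X chromosome turned round when the whole lists were cut to the same length. The X-linked parts of the lists, 1577 MSL2 and 1100 MSL3 records before the cut, were not made equal by it. With the strongest 1546 records of each list, 58.2% of MSL2 and 51.1% of MSL3 records on the X chromosome were shared. On the autosomes the shares were then 24.5% for MSL2 and 35.2% for MSL3, in the same order as before. The higher share on the X chromosome than on the autosomes held for both proteins under each alternative that was run.

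**Figure D1:**
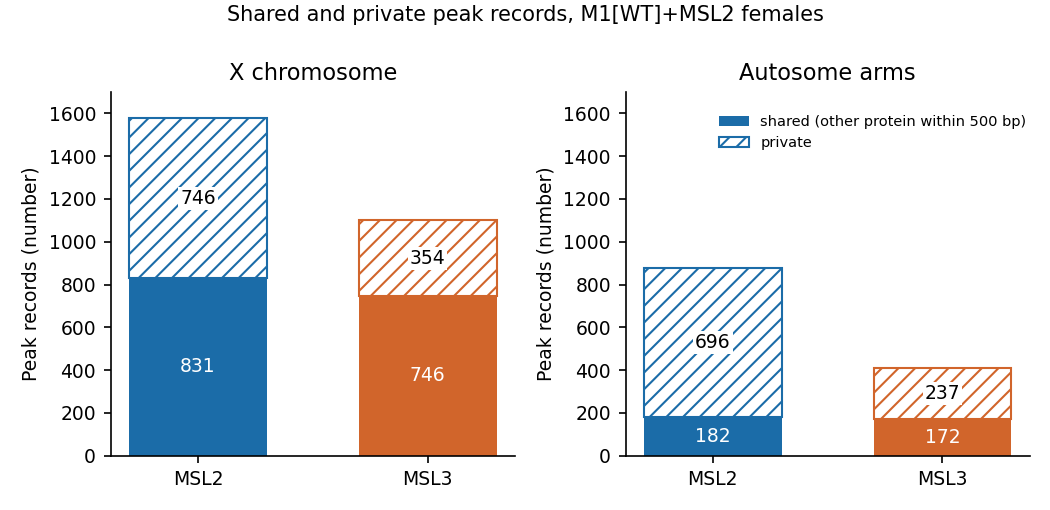
Number of peak records (y axis) of both proteins in these females, on the X chromosome (left) and the autosome arms (right). Filled bars are shared records and hatched bars private ones: 831 and 746 of MSL2 against 746 and 354 of MSL3 on the X chromosome, and 182 and 696 against 172 and 237 on the autosomes.

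Most shared records overlapped. On the X chromosome 716 of the 831 MSL2 records and 645 of the 746 MSL3 records overlapped a record of the other protein, and on the autosomes 159 of 182 and 157 of 172 did. The other 115 and 101 on the X chromosome lay 1 to 500 bp away. The largest gap of a shared record was 497 bp and the smallest gap of a private one 507 bp, both on the X chromosome. There 86 private MSL2 and 73 private MSL3 records had a gap of 501 to 1000 bp. Summed over records, 631955 bp of the X chromosome were covered by both proteins, which is 53.6% of the 1178780 bp of MSL2 and 48.0% of the 1316038 bp of MSL3. On the autosomes the 60371 bp in common were 15.6% of the MSL2 sequence and 35.2% of the MSL3 sequence. Thus MSL3, with fewer records, covered more of the X chromosome than MSL2 and less of the autosomes.

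Private records of the 2 proteins differed in how far they lay from the other protein. The median gap on the X chromosome was 5208 bp for MSL2 and 2498 bp for MSL3. A gap of at most 2000 bp was found for 27.2% of the private MSL2 and 42.4% of the private MSL3 records, and a gap above 10 kb for 33.1% and 16.9%. On the autosomes 81.3% of the private MSL2 and 72.2% of the private MSL3 records had a gap above 10 kb. The rule fixes the lower end of these gaps and the length of the other list bears on them.

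MSL3 records were wider than MSL2 records on the X chromosome, also where MSL2 had none. Private records had a median width of 449 bp for MSL2 (429 to 466 bp, n = 746) and 788.5 bp for MSL3 (724 to 885 bp, n = 354). Shared records measured 727 bp for MSL2 (673 to 768 bp, n = 831) and 897 bp for MSL3 (825 to 982 bp, n = 746). The classes of MSL2 records were thus further apart in width than those of MSL3 records. Autosomal records were narrow in both lists, with medians of 396.5 bp (shared) and 369 bp (private) for MSL2 and of 369.5 bp and 314 bp for MSL3. A wider record comes within reach of another more easily, and shared records ranked higher, with median percentiles from the top of 49.4% (shared) and 61.3% (private) for X-linked MSL2 and of 44.9% and 68.9% for X-linked MSL3, so width, rank and sharing cannot be told apart in these lists. Ranked by fold enrichment, these medians were 51.3% and 55.2% for MSL2 and 46.5% and 71.3% for MSL3. Among the strongest 50% of each list the order was the same, with 854 bp and 470 bp for shared and private MSL2 records and 1140 bp and 1031.5 bp for MSL3.

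The width of records went with their place in genes, other than for private MSL2 records. Away from start sites, shared MSL3 records had a median of 1077 bp and private ones of 890 bp. With the summit within 500 bp of an annotated start site, the medians were 527 bp and 365 bp. Shared MSL2 records differed in the same direction, with 790.5 bp away from start sites (730 to 854 bp) and 622 bp at them (526 to 686 bp). Private MSL2 records measured 427.5 bp away from start sites (384 to 461 bp) and 464 bp at them (443 to 500 bp). The widest MSL2 record, of 4759 bp, lay in Gapvd1 and overlapped a MSL3 record of 5437 bp. The widest MSL3 record, of 11172 bp, lay in HERC2, a gene for a large ubiquitin ligase, within 500 bp of a HAS, where the MSL2 record was 2127 bp wide.

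Records were next joined into pairs in which each was the other's nearest partner by summit. There were 665 X-linked and 167 autosomal pairs. Of the X-linked pairs, the MSL2 record was the wider in 261 and the MSL3 record in 401 (60.3%), with a median difference, MSL3 minus MSL2, of 35 bp (23 to 47 bp). Where the MSL2 summit lay at a start site the difference was −5 bp (−17 to 18 bp, n = 223), and elsewhere 49.5 bp (36 to 66 bp, n = 442). On the autosomes MSL3 was wider in 96 of 167 pairs, with a median difference of 14 bp (0 to 32 bp). A record could have several partners: 236 of the MSL2 records and 286 of the MSL3 records on the X chromosome had 2 or more, and none had more than 4.

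Summits lay closer together on the autosomes than on the X chromosome. For shared autosomal MSL2 records the nearest MSL3 summit lay at a median of 19.5 bp (16 to 28 bp, n = 182), and 67.0% were within 50 bp. For shared X-linked MSL2 records the median was 177 bp (126 to 247 bp, n = 831), and 33.6% were within 50 bp. Seen from MSL3, the medians were 18 bp on the autosomes (n = 172) and 110 bp on the X chromosome (n = 746). X-linked records were also wider than autosomal ones, as given above, and the part of width in these distances was not tested. In mutual pairs the medians were 75 bp (60 to 95 bp) on the X chromosome and 18 bp (14 to 23 bp) on the autosomes, and 137 of 665 X-linked pairs (20.6%) had summits over 500 bp apart, as had 8 of 167 autosomal pairs (4.8%).

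**Figure D2:**
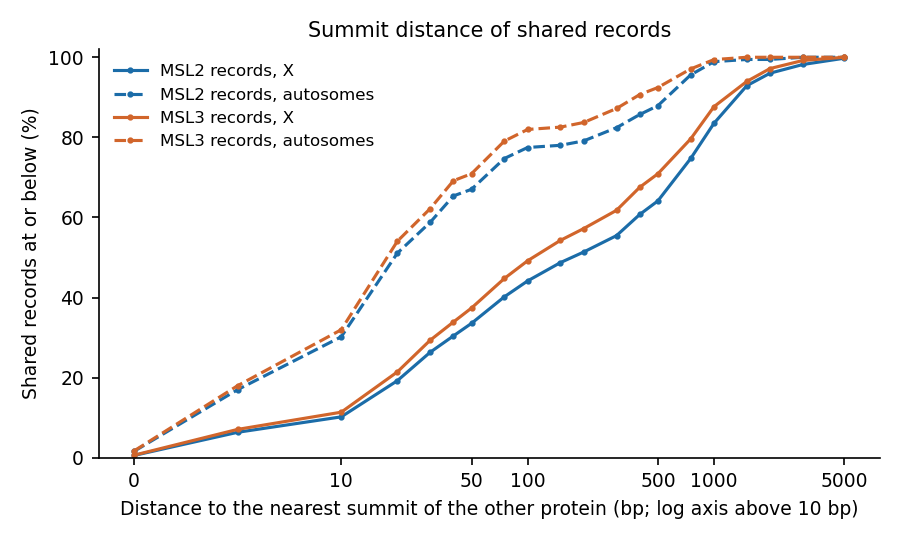
Share of shared records (y axis, %) whose nearest summit of the other protein lies at or below a given distance (x axis, bp, linear to 10 bp and logarithmic above), for MSL2 records (blue) and MSL3 records (orange) on the X chromosome (solid) and the autosome arms (dashed). At 50 bp the curves stand at 33.6% and 37.4% on the X chromosome and at 67.0% and 70.9% on the autosomes.

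Distant summits were found near HAS and away from them. Pairs within 500 bp of one of the study's HAS had a median summit distance of 109 bp (79 to 172 bp, n = 262), and the other X-linked pairs one of 59 bp (47 to 77 bp, n = 403). Distances over 500 bp were seen in 48 pairs near HAS (18.3%) and 89 pairs away from them (22.1%). In the 137 pairs with summits over 500 bp apart, the MSL2 summit lay at a start site in 50 (36.5%) and the MSL3 summit in 15 (10.9%). In the 367 pairs with summits within 100 bp, each protein had 132 summits at start sites. Records of the distant pairs were wide, with medians of 1108 bp for MSL2 and 1634 bp for MSL3, against 621 bp and 648 bp in the close pairs.

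The side of the MSL3 summit was read in X-linked pairs with summits over 100 bp apart and the MSL2 summit inside exactly 1 protein-coding gene, while the MSL3 summit could lie inside or outside it. With the MSL2 summit at a start site, the MSL3 summit was downstream along the gene in 55 of 74 pairs (74.3%, 63.3% to 82.9%). Of pairs whose MSL2 summit lay elsewhere, 89 of 187 had the MSL3 summit downstream (47.6%, 40.6% to 54.7%). In the reverse case, with the MSL3 summit at a start site, the MSL2 summit was downstream in 16 of 30 pairs (53.3%, 36.1% to 69.8%). No value without a preferred side was computed for summits that lie at the 5′ end of a gene. The pair with the farthest summits on the X chromosome lay in beta-Spec, which encodes the membrane skeleton protein beta-spectrin, with 4373 bp between the summits of records of 3802 bp (MSL2) and 6441 bp (MSL3).

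Away from HAS, private records of the 2 proteins tended towards opposite ends of X-linked genes. Records near HAS were set aside for this comparison, and summits inside exactly 1 protein-coding gene were placed along it and counted in 5 equal parts, each with 20% of the length of the gene. From the 5′ to the 3′ end, private MSL2 summits numbered 152, 121, 88, 81 and 75 (n = 517), and private MSL3 summits 29, 34, 57, 82 and 84 (n = 286). The median position was 37.7% of the gene for MSL2 (34.6% to 40.8%) and 68.4% for MSL3 (62.6% to 73.2%). Near HAS the order was the reverse, with 73.6% for the private MSL2 summits (50.6% to 85.0%, n = 39) and 52.9% for the private MSL3 summits (46.3% to 68.9%, n = 19). Shared summits away from HAS differed less, with medians of 42.3% for MSL2 (n = 424) and 51.7% for MSL3 (n = 351). On the autosomes private summits lay towards the 5′ end in both lists, at 25.7% for MSL2 (n = 454) and 33.5% for MSL3 (21.8% to 45.5%, n = 120).

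**Figure D3:**
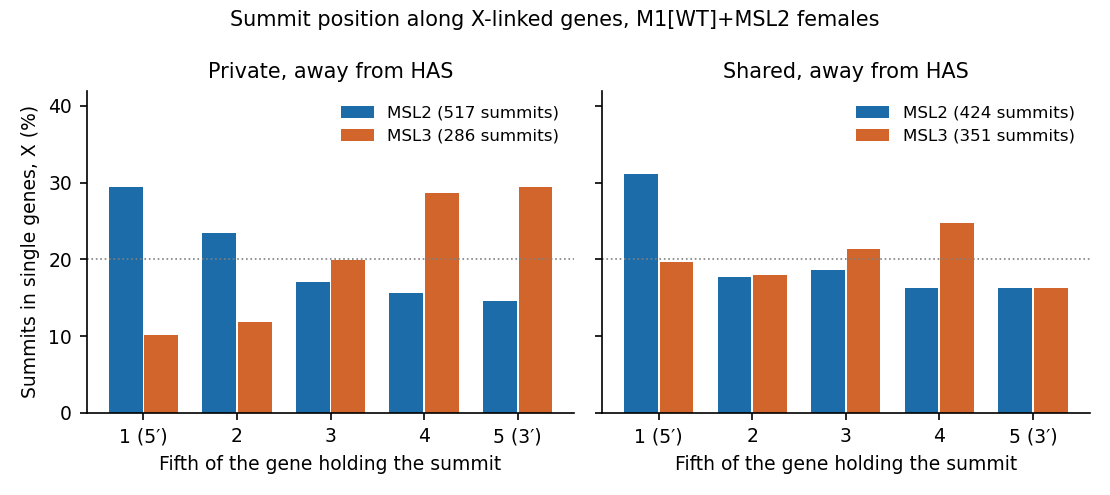
Share of X-linked summits inside single protein-coding genes (y axis, %) by position in 5 equal parts of the gene from the 5′ to the 3′ end (x axis), for private (left) and shared (right) records away from HAS, with MSL2 in blue and MSL3 in orange. The dotted line marks the 20% of gene length in each part. Private MSL2 summits are most frequent in the part at the 5′ end (152 of 517) and private MSL3 summits in those towards the 3′ end (82 and 84 of 286).

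Genes that held private summits of both proteins were then taken, records near HAS included. There were 65 on the X chromosome, and the mean position of MSL3 was nearer to the 3′ end in 55 of them (84.6%). The median difference, MSL3 minus MSL2, was 43.3% of the gene (39.9% to 49.8%). These genes had a median length of 13742 bp, and their nearest private summits of the 2 proteins were 3905 bp apart at the median. For example, in CG32772 the MSL2 summit (rank 412) lay at 19.7% of the gene and the MSL3 summit (rank 440) at 80.7%, and in ben, a gene for a ubiquitin-conjugating enzyme, MSL2 (rank 43) lay at 16.7% and MSL3 (rank 747) at 55.1%. In CG32767, one of the 10 genes in the reverse order, the mean position of 2 MSL2 summits was 36.1% and 1 MSL3 summit lay at 32.8%. The MSL2 summits of rank 43 in ben and of rank 42 in CG32767 were near HAS. These 3 genes were chosen after their values had been seen. Of all 453 X-linked genes with summits of both proteins, 300 (66.2%) had MSL3 nearer to the 3′ end, and on the autosomes 50 of 100 had. The rule separates private records by over 500 bp and does not set their order.

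The private classes also differed at start sites. Summits within 500 bp of an annotated start site made up 41.1% of private MSL2 records away from HAS (286 of 696, 37.5% to 44.8%) and 14.2% of private MSL3 records (47 of 332, 10.8% to 18.3%). Among shared records away from HAS the shares were 42.4% for MSL2 (221 of 521) and 31.2% for MSL3 (138 of 443). Of the sequence of the X chromosome, 12.6% lies that near to a start site. Within 1000 bp, and with records near HAS included, the private X-linked shares were 56.2% for MSL2 and 27.1% for MSL3, against 40.5% and 14.4% within 500 bp. The stronger and the weaker 50% of each private class away from HAS gave the same order. The shares at start sites were 45.1% and 37.1% for MSL2 and 14.5% and 13.9% for MSL3. Exons held 348 of the 696 private MSL2 summits (50.0%) and 291 of the 332 private MSL3 summits (87.7%), while introns held 239 (34.3%) of MSL2 and 14 (4.2%) of MSL3. Of all X-linked summits, exons held 64.2% of MSL2 and 85.0% of MSL3, and introns 24.4% and 7.2%. Of shared summits away from HAS, 75.4% of MSL2 and 79.9% of MSL3 lay in exons. The share of the X chromosome in exons was not computed. On the autosomes start sites held 56.0% of the private MSL2 and 65.0% of the private MSL3 summits, and 67.0% and 67.4% of the shared ones, beside 13.8% of the sequence.

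GA repeats were more frequent at private MSL2 records than in the background and were rare at private MSL3 records on the X chromosome. Within 100 bp of the summit, 91 of 746 private MSL2 records on the X chromosome had such a repeat (12.2%, 10.0% to 14.7%), and 2 of 354 private MSL3 records had (0.6%, 0.2% to 2.0%). Of all X-linked windows of this length, 1.97% have one, and of those centred on start sites 3.35%. Shared records had the repeat in 8.2% of MSL2 summits and 4.4% of MSL3 summits. The share was highest in the 50 private MSL2 records near HAS, of which 20 (40.0%, 27.6% to 53.8%) had a repeat like that printed above for Dop2R. Autosomal private records gave 10.2% for MSL2 (71 of 696) and 2.1% for MSL3 (5 of 237), and shared ones 3.3% for MSL2 (6 of 182, 1.5% to 7.0%) and 3.5% for MSL3 (6 of 172, 1.6% to 7.4%), beside 1.39% of all windows and 2.48% of those centred on start sites. With 10 alternating bases the X-linked private shares were 7.5% and 0.0%, and for summits over 500 bp from start sites 11.5% and 0.7%.

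Sharing was more frequent among strong X-linked records than among weak ones. Records were ranked by −log10 p within a list, with the strongest first. Among X-linked MSL3 records, 94.5% of the strongest 10% were shared and 45.5% of the weakest 10%. For MSL2 these shares were 77.8% and 42.7%. On the autosomes 40.9% of the strongest 10% of MSL2 and 65.9% of those of MSL3 were shared, and MSL3 did not decline evenly, with 24.4% in the fifth of 10 groups by rank and 53.7% in the eighth. The ranks of paired records agreed in part, with a Spearman's rho of 0.44 over 665 X-linked pairs and of 0.35 over 167 autosomal pairs. Both proteins were precipitated from the same line of flies, and the points are sites of 2 lists, so no p is given.

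**Figure D4:**
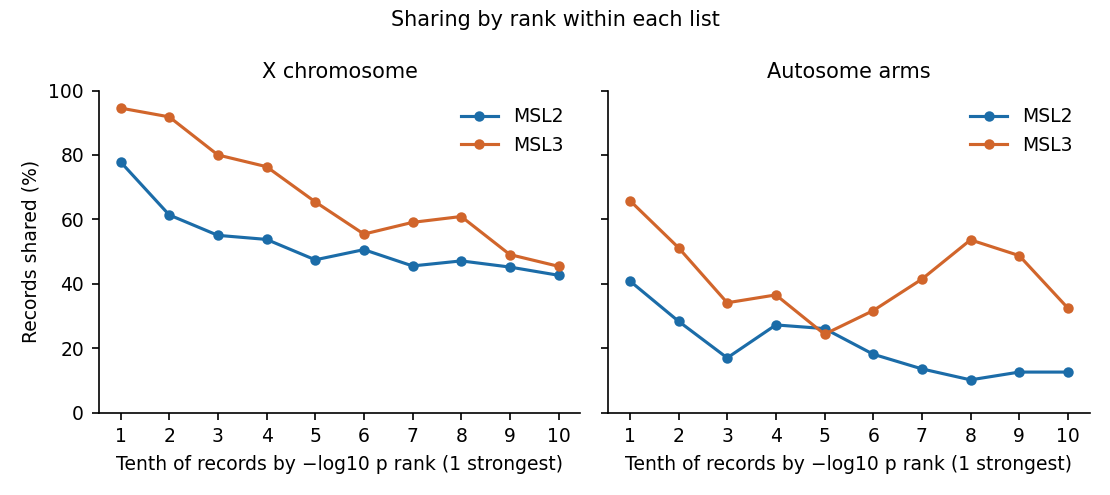
Share of records with a record of the other protein within 500 bp (y axis, %) by rank, in 10 groups of nearly equal size in order of −log10 p (x axis, 1 strongest), on the X chromosome (left) and the autosome arms (right). For X-linked records MSL3 (orange) stands at 94.5% in the strongest group and at 45.5% in the weakest, and MSL2 (blue) at 77.8% and 42.7%.

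The top of the lists differed in chromosome and in HAS. Of the strongest 100 MSL2 records 85 were on the X chromosome, 15 on the autosomes and 72 near HAS. Of the strongest 100 MSL3 records 49 were on the X chromosome, 46 on the autosomes, the rest on other sequences, and 23 near HAS. In the whole lists, 64.1% of MSL2 and 71.2% of MSL3 records were on the X chromosome. Near HAS were 360 of all 2460 MSL2 records and 325 of all 1546 MSL3 records. Most of the strongest 100 had a partner of any rank, with 78 of the 100 MSL2 and 74 of the 100 MSL3 records shared. The strongest MSL2 record lay in the exon of roX1, where the MSL3 record had rank 167 and a summit 40 bp away. The next X-linked MSL2 records were at Socs16D (rank 2; MSL3 rank 78), CG15247 (rank 3; MSL3 rank 304), CG12237 (rank 4; MSL3 rank 64) and Smr, which encodes a corepressor (rank 5; MSL3 rank 271). All 5 were near HAS and had a MSL1 record within 500 bp.

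The 5 strongest X-linked MSL3 records were other sites than these 5. They were found between Tlk, a kinase gene, and Rala, a gene for a small GTPase (MSL2 rank 62, MSL3 rank 1), in an intron of Hr4, a gene for a nuclear receptor (MSL2 rank 114, MSL3 rank 2), and beside the start sites of cib (MSL2 rank 139, MSL3 rank 4), of N, the gene for the Notch receptor (MSL2 rank 197, MSL3 rank 12), and of Atg8a, an autophagy gene (MSL2 rank 240, MSL3 rank 14). Of these 5, the one at Atg8a was near a HAS. All had a MSL2 summit within 50 bp, at 44, 1, 13, 3 and 23 bp. Thus shared records with nearly the same summit held quite different ranks in the 2 lists, which rank different libraries and antibodies.

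At the known entry sites the proteins differed in the same way. In roX2 the MSL2 record of rank 16 was 3570 bp wide, with its summit in the exon, and the MSL3 record was 3409 bp wide, with its summit 495 bp away, next to the start of nod, and rank 214. Pp2C1, a phosphatase gene with a HAS, had 3 MSL2 and 2 MSL3 records. The strongest of each had summits in an intron, 3 bp from each other, with MSL2 rank 9 and MSL3 rank 293. Their widths were 2197 bp and 476 bp. The other MSL3 record was 3306 bp wide (rank 490), and the other MSL2 records measured 509 bp (rank 1306) and 342 bp (rank 2080). By the mean of both ranks, each as a percentile of its list, the strongest shared pairs on the X chromosome lay at Tlk and Rala, at sta (MSL2 rank 33, MSL3 rank 24), in Stt3A (14 and 38), which encodes a subunit of the oligosaccharyltransferase, in CG4645 (19 and 43) and in hep, a kinase gene of the JNK pathway (10 and 54).

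Of all HAS of the study, 205 (68.1%) had records of both proteins within 500 bp, 34 (11.3%) had MSL2 alone, 12 (4.0%) had MSL3 alone and 50 (16.6%) had neither. Among shared records near HAS, 156 of 310 MSL2 summits and 125 of 303 MSL3 summits lay inside a HAS, and among private ones 26 of 50 and 2 of 22. The HAS of the study are intervals with a median of 801 bp. Among records within 500 bp of a HAS, the median distance of the summit from it was 0 bp for MSL2 (0 to 17 bp, n = 360). For MSL3 it was 228 bp (102 to 312 bp, n = 325). Shared records there had median widths of 878 bp for MSL2 and 1227 bp for MSL3, and the part of width in these distances was not tested. The 50 private MSL2 records near HAS were strong, with a median rank in the top 18.9% of the list (12.3% to 35.1%), against 63.1% for the 696 private records away from HAS. Shared MSL2 records near HAS were strong as well, with a median of 26.3% (21.5% to 33.3%, n = 310).

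Among strong private MSL2 records, that of Dop2R, a dopamine receptor gene, had rank 20, lay near a HAS and was 56895 bp from the nearest MSL3 record. Next came CG4313 (rank 32), CG32767 (rank 42), ben (rank 43) and Ugalt, a gene for a nucleotide-sugar transporter (rank 46). The gaps at CG32767 and ben were 688 bp and 858 bp, so that a limit of 1000 bp makes these 2 shared. The strongest private MSL3 records on the X chromosome were near RpL37-1 (rank 66), upd2, a gene for a JAK/STAT ligand (rank 79), CG3918 (rank 86), DAAM, a formin gene (rank 95), and Axs (rank 106). All 5 summits lay outside genes, unlike most private MSL3 summits, and none was near a HAS. The record at CG3918 was 555 bp from a MSL2 record, so that it too is shared under a limit of 1000 bp.

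Of the 167 autosomal pairs, 115 had the MSL2 summit at a start site. The strongest was at ATPsynC, a gene for the membrane ring of the ATP synthase on 3R (MSL2 rank 50, MSL3 rank 3), with summits 3 bp apart. It was followed by cindr (ranks 99 and 13; 5 bp), Men-b, a malic enzyme gene (84 and 25; 14 bp), Galphai, a G protein gene (183 and 6; 16 bp), and MCU, the mitochondrial calcium uniporter gene (149 and 28; 2 bp). Their summits lay 70 to 461 bp from a start site of these genes. Private MSL2 records were strongest at Arf1 (rank 55), ush (58), CNBP (68), Df31 (71) and lncRNA:iab8 (74), and all 5 had records of both proteins in males. Among the 5 strongest private MSL3 records, those of bor (rank 11), CG13323 (23) and CG7031 (39) lay outside genes. Their summits were 3517, 3882 and 10143 bp from the nearest start site. The other summits lay in introns of bun, a gene of the TSC22 family (22), and tun (41). They were 15637 and 455 bp from a start site of their gene. All 5 records had a MSL3 record but no MSL2 record in males.

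The male lists separated the private classes on the autosomes. A male MSL2 record lay within 500 bp of 85.6% of the private MSL2 records (596 of 696, 82.8% to 88.0%) and of 46.8% of the private MSL3 records (111 of 237, 40.6% to 53.2%). A male MSL3 record lay within 500 bp of 52.0% of the private MSL2 records (362, 48.3% to 55.7%) and of 94.1% of the private MSL3 records (223, 90.3% to 96.4%). In males each private class was thus met more often by its own protein than by the other protein. Many of these records had both in males, with 49.0% of the private MSL2 records (341, 45.3% to 52.7%) and 44.7% of the private MSL3 records (106, 38.5% to 51.1%). Of the autosomal sequence, 5.93% lies within 500 bp of a male MSL2 record and 7.96% within 500 bp of a male MSL3 record. The same antibodies were used in both sexes, and the part of the antibodies in these shares was not tested.

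On the X chromosome the male lists met more of the private MSL3 records. Of the private MSL2 records, 73.9% had a male MSL2 record and 60.6% a male MSL3 record. Of the private MSL3 records, 77.1% had a male MSL2 record and 93.5% a male MSL3 record. Both proteins were present in males at 54.3% of the private MSL2 and 76.6% of the private MSL3 records (50.7% to 57.8% and 71.9% to 80.7%). Shared records were met by both male lists in 95.2% of MSL2 and 94.9% of MSL3 records. Male records lie within 500 bp of 20.2% (MSL2) and 22.8% (MSL3) of the X chromosome. Thus many X-linked sites with 1 protein in these females had both in males.

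MSL1 of the same females met similar shares of both private classes on the X chromosome. A MSL1 record lay within 500 bp of 16.5% of the private MSL2 records (14.0% to 19.3%) and of 15.5% of the private MSL3 records (12.1% to 19.7%), against 61.1% and 60.3% of the shared ones. Near HAS it met 41 of 50 private MSL2 and 13 of 22 private MSL3 records. On the autosomes MSL1 met 8.3% of the private MSL2 records (6.5% to 10.6%) and 21.1% of the private MSL3 records (16.4% to 26.7%), and 40.7% and 38.4% of the shared ones. The sequence within 500 bp of a MSL1 record is 5.27% of the X chromosome and 0.50% of the autosomes.

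**Figure D5:**
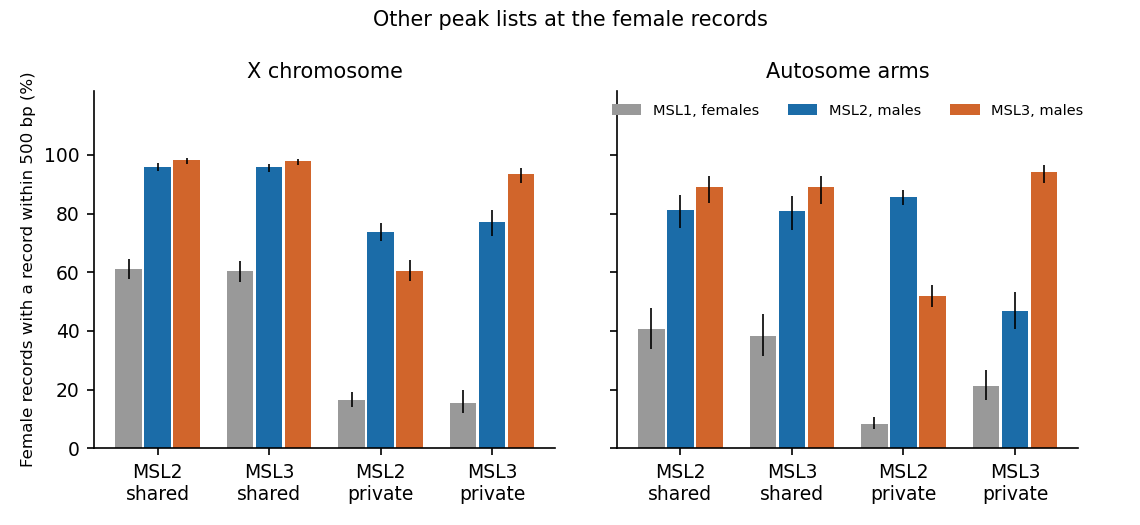
Share of shared and private female records (y axis, %, with 95% Wilson intervals) that have a record within 500 bp in the MSL1 list of the same females (grey), the male MSL2 list (blue) or the male MSL3 list (orange), on the X chromosome (left) and the autosome arms (right). On the autosomes private MSL2 records reach 85.6% for male MSL2 and 52.0% for male MSL3, and private MSL3 records 46.8% and 94.1%.

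The comparison of the proteins in M1[WT] males gave higher sharing. In females 52.7% of the X-linked MSL2 and 67.8% of the MSL3 records were shared, and in males 80.2% and 80.8%. On the autosomes the shares were 20.7% and 42.1% in females and 49.4% and 45.0% in males. Shared X-linked MSL2 records had their MSL3 summit at a median of 177 bp in females, against 365 bp in males, and shared autosomal ones at 19.5 bp and 178 bp. Summits within 50 bp were found for 67.0% of the shared autosomal MSL2 records in females and for 33.8% in males (625 of 1849). Near coincidence of autosomal summits was thus seen in both sexes, as a smaller share but a larger number of records in males. The male lists were longer, they end at a looser threshold of the irreproducible discovery rate than the female ones, and males carry 2 copies of the MSL1 transgene against 1 in females, so sex, transgene dose and list cannot be told apart.

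Some genes of fixed lists were then examined for records within 500 bp of the gene. Of 14 X-linked genes for cytosolic ribosomal proteins, 6 had both proteins, 4 had MSL2 alone, 3 had MSL3 alone and 1 had neither. Over all 2196 X-linked protein-coding genes these numbers were 745, 358, 162 and 931. Of 78 autosomal ribosomal protein genes, 4 had both, 6 had MSL2 alone, 5 had MSL3 alone and 63 had neither, beside 261, 675, 256 and 10557 of all 11749 autosomal protein-coding genes. At RpL22 the strongest MSL2 and MSL3 records had ranks 347 and 35, and at RpL17 they had ranks 299 and 32. The best MSL2 rank at a ribosomal protein gene was 178, at the X-linked RpS28b, which had no MSL3 record. Of the genes for the complex itself, mof, mle and msl-3 had no record of either protein. The genes cno and Prosbeta2R2 shared 1 MSL3 record (rank 394) and bun had 1, and none of these 3 had a MSL2 record.

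Records were also found over genes that the transgenes carry. Over msl-2 there were 2 MSL2 records (ranks 1002 and 915) and 2 MSL3 records (ranks 1031 and 1104) in females, and none of either protein in males. They spanned positions 3463306 to 3465768 (MSL2) and 3463311 to 3465587 (MSL3) of 2L, and the coding sequence of msl-2 runs over 3463269 to 3465639. MSL1 of the females had 2 records there as well. The MSL2 transgene carries this sequence and the IgG libraries came from flies without it, so binding at the endogenous gene, binding at the transgene and its copy number cannot be told apart. At msl-1 females had 1 MSL2 record (rank 484) and no MSL3 record, and at Ubi-p63E 1 MSL2 record (rank 2311) overlapped the gene. Within 500 bp of Ubi-p63E there were 2 MSL2 records (best rank 823) and 1 MSL3 record (rank 1080). Leaving out the records that overlap these genes, 4 of MSL2 and 2 of MSL3, gave 20.5% and 41.8% of shared autosomal records. Records beside the genes stayed in.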

How the data were processed

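Whole flies were used for ChIP-seq with antibodies to MSL2 and MSL3. Per the methods, the authors used cutadapt for trimming, Bowtie 2 and the dm6 genome for mapping, Picard and a blacklist for filtering, and MACS2 with nonspecific IgG as control for peak calling. Peaks that passed an IDR (irreproducible discovery rate) threshold were kept, and the female lists end at the stricter of the thresholds in the methods. The deposited lists give for each record positions in bp, a −log10 p, a fold enrichment (a ratio) and a summit offset, all other values per record. The −log10 p and the ratio were used as ranks within a list only. Read numbers are not in these lists, so depth is unknown.

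Summits are start plus offset, printed 1-based. The 500 bp gap is that of the study's own comparison of MSL1 and MSL2 peaks. The MSL1 and male lists and the study's HAS served as other measures. Genes and start sites came from Ensembl release 115 and sequences from RefSeq (Release 6, the assembly of dm6). Named genes were roX1, roX2, Pp2C1, the gene lists, the 5 strongest records of each class, the widest records and the farthest pair. Their gene is that holding the summit, else that of the nearest start site. The members and lists were chosen with earlier results of these data known. Alternatives are in the closing section. Python 3.11.15, numpy 2.4.6, pandas 2.3.3, scipy 1.17.1, matplotlib 3.10.9 and bedtools 2.31.1 were used, and 6 checks of the functions on simulated data passed.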

Additional observations from a re-analysis of the deposited data

Results flagged for a closer look

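Some records lay on sequences other than the X chromosome and the autosome arms, 37 of MSL3 and 5 of MSL2 in females. They counted in the shares over all records and in the ranks, and were not examined apart above. In the female lists, sequences of the Y chromosome held 3 records of MSL3 and 0 of MSL2, although females have no Y chromosome. The 3 records were 221 to 565 bp wide, lay on 1 sequence and had ranks of 65 to 572. In males these sequences held 5 records of MSL3 and 6 of MSL2. Unplaced sequences assigned to the X chromosome held 27 records of MSL3 (ranks 84 to 1465) and 3 of MSL2 in females, and 1 and 0 in males. How reads with several matches were mapped is not given in the sources used here, and its part in these records was not tested.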

How the results depend on the processing

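Of 142 values recomputed under alternatives, 88 stayed within the interval of the reported value. Some of these could not change, namely values of joined lists and X-linked values without the genes of the transgenes, which are autosomal. With a gap of 0 bp the shared X-linked records were 45.4% (MSL2) and 58.6% (MSL3) and the autosomal MSL2 records 18.1%, the X-linked summit distance was 95 bp and the width of shared X-linked MSL2 records 769 bp. With 1000 bp the X-linked shares were 58.1% and 74.5% and the distance 288 bp. With summits within 500 bp they were 33.8% and 48.1%. The strongest 50% gave 43.9% (MSL2) and 64.4% (MSL3) on the X chromosome, 15.9% and 32.4% in autosomes, an autosomal distance of 13 bp, and widths on the X chromosome of 854 bp (shared) and 470 bp (private) for MSL2 and of 1140 bp and 1031.5 bp for MSL3. With 1546 records in both lists the shares were 58.2% and 51.1% for the X chromosome and 24.5% and 35.2% for the autosomes, and the X-linked distance was 118 bp. The order of MSL2 and MSL3 on the X chromosome turned round under this setting, and the cause was not tested beyond the shorter MSL2 list. The setting made the whole lists equal in length, not their X-linked parts. With start sites within 1000 bp all 8 shares at start sites left their intervals, and on the X chromosome those of MSL3 were 44.6% (shared) and 27.1% (private). Ranking by fold enrichment gave 51.3% and 55.2% as median percentiles of shared and private X-linked MSL2 records. No records of a list overlapped, so joining them changed nothing. Counting unplaced sequences with the autosomes kept every share within its interval, and so did leaving out records that overlap genes of the transgenes. The latter setting was added after the data were seen, as was the count of GA repeats away from start sites. Leaving out a replicate was not possible, since each list was made from both. No paired analysis was possible because the lists carry no replicate values. Each list stands for 1 set of flies, antibody and depth, so differences between MSL2 and MSL3 lists include those of the antibodies and of the IDR selection, whose parts were not tested.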
